A study of Homo sapiens with 2 samples.

Results

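Short assembled loci outside named genes are stretches under 200 bases that the transcript assembler built from reads where the reference annotation of the files holds no gene, and that stood at 100 FPKM or more. FPKM counts fragments for each kilobase of a transcript, relative to the library's mapped fragments. A locus was kept when every transcript under its gene identifier was assembled and not taken from the annotation, when its longest transcript was under 200 bases, and when it overlapped no locus that holds a reference transcript. In replicate 1, 239 of 56200 gene identifiers met this rule, and in replicate 2, 218 of 66537 did. The loci were thus chosen by their FPKM and length in each library, and both are given below as a description. Before the FPKM limit, 1150 short assembled loci lay outside reference loci in replicate 1 and 1244 in replicate 2, and the 911 and 1026 of them under 100 FPKM are called the rest. Merged by overlap, the loci of both libraries made 293 sites.

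The cells derived from U2OS, an osteosarcoma line of human origin, as a recombinant line that carries the cell cycle phase marker spelled G1S-CCPM or G1S-CCMP in the labels and stably makes the Cas9 nuclease from a CAG promoter. Both libraries came from untreated cells grown in McCoy's medium with Geneticin (500 µg/mL) and 10% fetal bovine serum, and form 1 group of 2 replicates with no contrast between conditions. Poly(A) RNA was captured on beads and the library kit kept strand. Whether separate cultures were used is not in the labels, so differences between the libraries may be technical, and nor is whether the line is 1 clone. Of 9 bone lineage markers, SPARC stood at 312 and 297 FPKM in replicates 1 and 2 and COL1A1, a collagen chain, at 69.2 and 82.6 FPKM. COL1A2, RUNX2, SP7, ALPL and SPP1 stood between 0.0104 and 3.03 FPKM, and IBSP and BGLAP were listed at 0 in both libraries. Coverage per FPKM, over transcripts of 100 bases or more, was 5.78 and 5.57 at the median in replicates 1 and 2. Depth in reads is unknown.

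A processed pseudogene is a copy of a messenger RNA that was reverse transcribed and pasted back into the genome. It has no introns and often ends in the remains of the poly(A) tail of its source, and it usually has no promoter of its own. Genes with abundant mRNA, those of ribosomal proteins above all, have left many such copies in the human genome. Because a young copy is close to its parent gene in sequence, short reads can often be placed on either.

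Many of the loci lay across an end of such copies, as counted further below. The first sequences are examples chosen because the site contains an annotated 3′ end, so they do not show where loci lie in general. No genome of this build was used, so sequence could be read only where a GENCODE 29 transcript covers a locus. The following 6 stretches are the annotated bases, up to the annotated 3′ end, that a site covers in ribosomal protein copies. Capitals mark the stop codon, and each site ran on beyond it. Build GRCh38, read 5′ to 3′ on the strand of the pseudogene.
RPS12P22, chr11:74745716-74745768, minus strand: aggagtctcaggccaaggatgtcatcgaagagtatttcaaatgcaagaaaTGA
RPL13P12, chr17:17383377-17383427, minus strand: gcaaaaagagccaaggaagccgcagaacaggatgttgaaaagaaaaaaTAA
RPS7P1, chr17:28468369-28468406, plus strand: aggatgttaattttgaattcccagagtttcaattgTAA
RPLP2P3, chr11:107908732-107908764, plus strand: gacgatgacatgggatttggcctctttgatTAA
AL022718.1, chrX:124326175-124326209, minus strand: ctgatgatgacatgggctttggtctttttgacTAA
AL355309.1, chrX:137324972-137325003, minus strand: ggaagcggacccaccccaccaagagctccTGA

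These stretches are examples of the 31 copies, of 41 whose end could be read, that closed with a stop codon. The 41 were taken because the site contains the annotated 3′ end. Running on past that end thus follows from the choice, though the number of bases does not. The sites shown ran on past the stop codon by 49, 47, 51, 53, 46 and 61 bases, in the order above. The closest coding transcripts to the whole annotated copies, by BLAST, were those of RPS12, RPL13, RPS7, RPLP2, RPLP1 and RPL28, at 98.0, 98.4, 99.1, 93.4, 97.6 and 97.4% identity. RPL proteins belong to the large ribosomal subunit and RPS proteins to the small subunit, and RPLP1 and RPLP2 form the acidic stalk of the large subunit. AL022718.1 and AL355309.1 carry no parent gene in their names, so their matches come from sequence alone.

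Only 22 of the 457 loci lay whole inside a GENCODE exon, and 6 of those held a run of 8 or more A or T. The next 3 stretches are the 30 bases at the end that holds that run, in capitals, of loci that match the 3′ end of a coding transcript. They are shown because their sequence can be read past the closest match to the coding transcript, which the copies above do not allow. The only other site with such a run, NT5C3AP1 in replicate 2, is not shown: its match to NT5C3A spanned all 87 bases, so its run of 9 A lay within the match.
HMGB1P5 (replicate 2), chr3:22382897-22382926, plus strand: aaatacaatttttttattAAAAAAAAAAAA
AL078595.1 (replicate 1), chr6:94344926-94344955, plus strand: aatacaaattttccttAAAAAAAAgaaaaa
AC138305.3 (replicate 1), chr16:63397717-63397746, plus strand: ttcTTTTTTTTctccattgcacttttattt

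HMGB1P5 is a copy of HMGB1, a chromatin protein of the high mobility group, and its locus in replicate 2 ran 11 bases past the RefSeq end, all of them A. Its match to HMGB1 transcripts covered 70 bases at 98.6% identity and reached their last base. AL078595.1 matched RPL7A, a large subunit protein, over 48 bases at 100% identity, ending 2 bases before the end of the closest transcript. AC138305.3 is not annotated as a pseudogene. It matched YWHAZ, an adaptor protein, over 71 bases at 100% identity on the opposite strand and up to the last base of a YWHAZ transcript, so its T run stands where a tail of A would follow on the other strand. Its locus stood at 187.1 and 147.9 FPKM in replicates 1 and 2, against 438.2 FPKM for AL078595.1 in replicate 1. The locus of AL078595.1 had 62 bases, and its FPKM was high for its coverage, as described below for very short loci.

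The loci were short even within their class, and their lengths fell in a narrow window. Each had a single unspliced transcript, and the median length was 85 bases in both libraries, with 40 to 198 bases in replicate 1 and 41 to 159 bases in replicate 2. In replicate 1, 169 loci (70.7%) were 75 to 100 bases long, and in replicate 2, 171 (78.4%) were, against 3.07% and 3.70% of the rest, whose median length was 161 bases in both libraries. Length and FPKM moved together across all short assembled loci. Of those 75 to 100 bases long, 85.8% and 81.8% reached 100 FPKM, and the lowest stood at 54.7 and 57.4 FPKM in replicates 1 and 2. Of those over 100 bases, 5.26% and 3.52% reached it. All 21 and 11 loci under 75 bases did, the lowest at 230 and 262 FPKM. The FPKM limit therefore also acted as a limit on length, and the difference in length from the rest is not a separate result.

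**Figure D1:**
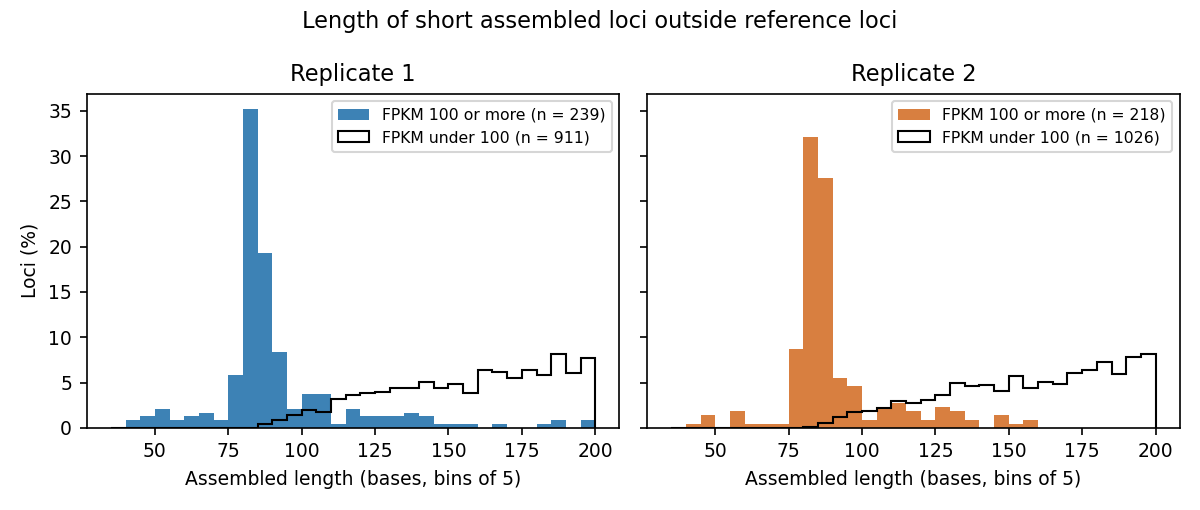
Lengths of short assembled loci outside reference loci, in bins of 5 bases (x axis), as the percent of loci in each library (y axis). Filled bars are loci at 100 FPKM or more and outlines are the rest; most filled loci lie between 75 and 100 bases (70.7% in replicate 1, 78.4% in replicate 2), where 3.07% and 3.70% of the rest lie.

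The median level was 258 FPKM in replicate 1, with a maximum of 15200, and 272 FPKM in replicate 2, with a maximum of 13200. In replicate 1, 46 loci passed 1000 FPKM, and in replicate 2, 38 did. They made up 35 and 33 of the 100 gene identifiers of highest FPKM. Their summed FPKM was 19.5% of the total of replicate 1 and 14.6% of that of replicate 2, but coverage times length, a measure of sequenced bases that does not divide by length, was 1.35% and 1.23% of the total. FPKM of the very shortest entries was higher for the same coverage. Under 60 bases (12 and 8 loci), coverage per FPKM had a median of 3.07 and 2.90, against 5.72 and 5.54 for the longer loci. Their deposited confidence bounds were also wider, with a median halfwidth of 51.3 and 49.0% of the value, against 34.6 and 36.8% for the longer loci. Levels of loci under 60 bases are therefore not on the same scale as most of the others. The limit of 60 bases is not a sharp one. At 63 bases in replicate 1, chrX:100028407-100028469 stood at 15180 FPKM with a coverage of 57980. RPL37P2, of 89 bases, stood at 8791 FPKM in that library with a coverage of 49420.

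About as many loci lay in annotated pseudogenes as outside them, and at the highest levels most did. By RefSeq (GRCh38.p14) or GENCODE 29, 126 of the 239 loci of replicate 1 (52.7%) and 108 of the 218 of replicate 2 (49.5%) overlapped a pseudogene, against 8.78% and 10.2% of the rest. The mean share of both libraries, 51.1%, was 20.7% by GENCODE alone, since 80 of the 142 pseudogene sites are annotated by RefSeq alone. The share rose with FPKM: 5.92 and 7.16% of loci at 1 to 10 FPKM, 40 and 32.2% at 100 to 300 FPKM, and 80.4 and 81.6% at 1000 FPKM or more in replicates 1 and 2. Because length went with FPKM, the share was also taken among loci of 75 to 100 bases, where it was 55.0 and 52.0% at 100 FPKM or more, against 4 of 28 (14.3%) and 3 of 38 (7.89%) under 100 FPKM.

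**Figure D2:**
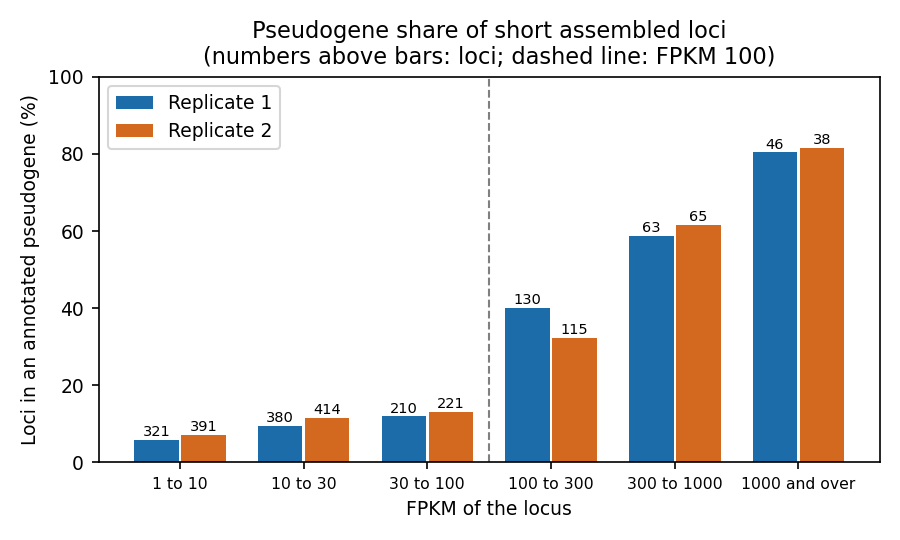
Percent of short assembled loci that overlap an annotated pseudogene (y axis) by the FPKM of the locus (x axis), for both libraries; the number above each bar counts loci. Left of the dashed line at 100 FPKM the shares lie between 5.92 and 13.1%, and right of it between 32.2 and 81.6%.

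Over the 293 sites, 142 (48.5%) lay in pseudogenes, with a median over sites of the mean FPKM of 426. Exons of other GENCODE genes held 29 sites (9.90%, median 174), introns or spans of other genes 38 (13%, median 172), and 84 (28.7%, median 187) lay where neither annotation has a gene. Of the 46 sites with a mean of 1000 FPKM or more, 37 lay in pseudogenes, 19 of them in copies named after a ribosomal protein gene, and 7 in no annotated gene. Of all 17088 RefSeq pseudogenes, 132 (0.772%) held a locus of this kind, and of 1994 named as copies of cytosolic ribosomal protein genes, 40 (2.01%) did. A reference locus overlapped 6879 of the 17088 in replicate 1 and 6882 in replicate 2, where the rule allows no locus over the shared bases. Both shares count such pseudogenes in their totals.

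Loci in pseudogenes mostly sat across an end of the copy. Of 132 sites with a RefSeq pseudogene span, 109 (82.6%) crossed exactly 1 end of it and 23 lay inside. The part inside had a median of 72 bases (quartiles 70 and 74) and the part beyond the end a median of 12 bases (quartiles 10 and 15, range 1 to 35). Per library, 102 of 117 loci with a RefSeq span (87.2%) crossed 1 end in replicate 1 and 83 of 101 (82.2%) in replicate 2, against 10 of 58 (17.2%) and 15 of 67 (22.4%) of the rest. The RefSeq table used gives no strand. An end was assigned from GENCODE only where a GENCODE processed pseudogene largely shared the RefSeq span, which held for 38 of the 109 sites. In 36 of those the end crossed was the 3′ end, and in 2, the copies of NAMPT and PDCD5, it was the 5′ end. GENCODE on its own placed 43 of 54 sites in processed pseudogenes at the 3′ end, 2 at the 5′ end and 9 inside.

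**Figure D3:**
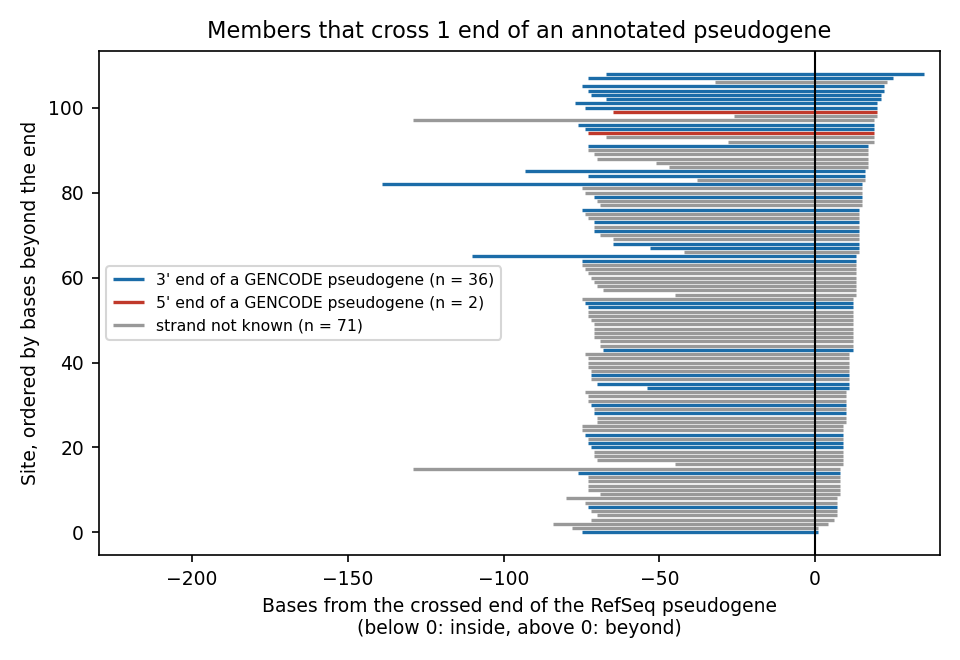
Each line is a site that crosses 1 end of a RefSeq pseudogene, drawn from the bases inside (below 0) to the bases beyond (above 0) that end, in bases on the x axis, with sites stacked by bases beyond the end on the y axis. Most lines run about 72 bases inside and 12 bases beyond, and 36 of the 38 with an end assigned from GENCODE cross the 3′ end. Lines labelled as strand not known include some with a GENCODE strand that was not used.

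At most of the sites read, GENCODE ended the copy at a stop codon. For 41 sites that contain the 3′ end of a GENCODE processed pseudogene the last exon was read, and in 31 (75.6%) it closed with a stop codon triplet. The same share over all GENCODE processed pseudogenes was not computed, so this describes the annotation at these sites alone. These 31 sites went on past that triplet by a median of 57 bases (quartiles 49 and 70, range 25 to 151). Of the 41 copies, 40 matched a coding transcript, at 87.6 to 100% identity (median 97.35%). In all 35 with both a parent gene in the name and a match, that parent was also the closest match, and 1 more with a parent in its name had no match.

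The parent genes were mostly abundant in the same libraries. A parent could be read from the name of the pseudogene at 120 sites, which gave 105 parents. The median parent stood at 282 and 242 FPKM in replicates 1 and 2, against 3.38 and 3.35 FPKM for the median of all named coding genes. Of the parents, 70.5 and 68.6% stood at 100 FPKM or more, against 3.86 and 3.15% of all named coding genes. Levels for the parents of all RefSeq pseudogenes were not computed. Abundant genes left many copies, so how far this contrast is particular to these loci is unknown. Across sites, the rank correlation of a locus with its parent was 0.481 in replicate 1 (n = 106) and 0.484 in replicate 2 (n = 91); sites of 1 library share its depth, and some share a parent. The loci were chosen at 100 FPKM or more and the parents were not, so a locus lies above any parent under 100 FPKM by the choice of loci, which also bears on the rank correlation. Where the parent stood at 100 FPKM or more, the locus was above it at 52 of 82 sites in replicate 1 and 46 of 66 in replicate 2, as a description. Copies under 100 FPKM are missing for these parents too, so these counts also lean toward loci above their parent. The labels do not state how reads that fit both a copy and its parent were placed. Every level in a copy is therefore uncertain as a measure of RNA from that copy.

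**Figure D4:**
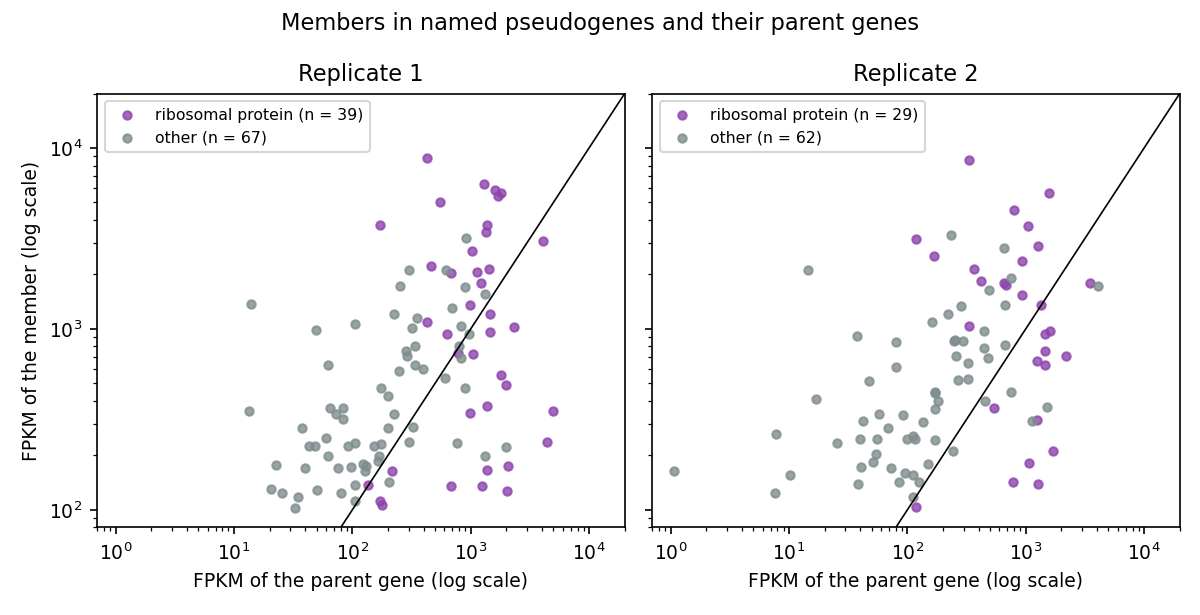
FPKM of loci in named pseudogenes (y axis, log scale) against FPKM of the parent gene in the same library (x axis, log scale), each point a site, with the line of equal level. Loci start at 100 FPKM by the rule, so points with a parent under 100 FPKM can only lie above the line. Of the others, 52 of 82 in replicate 1 and 46 of 66 in replicate 2 do, but copies under 100 FPKM are missing there too. Ribosomal protein copies (purple) hold most of the highest points.

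Of the groups of parents, all taken from pseudogene names, cytosolic ribosomal protein genes were the largest. Copies without a parent in the name, such as AL022718.1, AL355309.1, AL078595.1 and AC099789.1, are not counted in it although their closest match was a ribosomal protein gene. It held 41 sites from 33 parents, 27 of them in both libraries, at a mean of 106 to 8660 FPKM (median 966). Among large subunit copies, RPL37P2 (chr11:67682701-67682789) stood at 8791 and 8539 FPKM in replicates 1 and 2 (8665 ± 178.4, SD, n = 2), against 429.4 and 331.6 FPKM for RPL37. RPL13P12 stood at 3771 and 3123 FPKM, against 171.2 and 118.6 FPKM for RPL13. Both copies were well above their parent in each library, and their own libraries differed by less than 1.5-fold. Among small subunit copies, RPS12P22 stood at 5451 and 5641 FPKM, against 1711 and 1561 FPKM for RPS12. RPS7P1 stood at 2239 and 2131 FPKM, against 458.0 and 365.6 FPKM for RPS7. Not every copy was above its parent. Of 60 sites found in both libraries whose parent stood at 100 FPKM or more in both, 40 were above it in both and 12 below it in both. The rule left out copies under 100 FPKM, so these counts lean toward sites above their parent.

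Other groups of parents were smaller, and again of widely used genes. Copies of translation initiation factors made 7 sites (6 in both libraries, 183 to 2720 FPKM), led by EIF3FP3 at 2118 and 3313 FPKM in replicates 1 and 2. Copies of genes with COX or ATP5 names (COX17, COX5A, COX6A1, COX7A2, COXFA4 and ATP5MC2) made 6 sites, all in both libraries, at 354 to 1150 FPKM. COX7A2P2, a copy of a cytochrome c oxidase subunit gene, stood at 1207 and 1089 FPKM, against 225.0 and 161.4 FPKM for COX7A2. Copies of hnRNP, high mobility group and YBX genes, whose proteins bind nucleic acids, made 7 sites at 134 to 1810 FPKM. Copies of tubulin and keratin genes made 4 sites, at 254 to 1560 FPKM.

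Of the 10 sites of highest mean FPKM in both libraries, 6 lay in pseudogenes and 4 in no annotated gene. Loci under 60 bases are ranked here with the others although their FPKM is not on the same scale. The highest, chr4:22663237-22663277, stood at 15020 and 13230 FPKM in replicates 1 and 2, with 40 and 41 bases and bounds of 8305 to 21740 and 7587 to 18870. Its coverage, 44090 and 37750, was below that of RPL37P2, 49420 and 46470. Next came chrX:100028407-100028469, at 15180 and 6287 FPKM with 63 and 62 bases, a log2 ratio of 1.27 with bounds that did not overlap. Its coverage was 57980 and 23010, so its FPKM too was high for its coverage. chrX:44794837-44794920 stood at 4645 and 6937 FPKM, also with bounds that did not overlap but a log2 ratio of -0.58, and chrX:53337724-53337769, of 46 bases, at 5921 and 2277 FPKM. So 3 of the 4 unannotated sites lay on chromosome X, as did the copy AL022718.1, at 5788 and 5853 FPKM. The other copies in this list were RPL37P2 and RPS12P22, RPL31P35 at 6359 and 3716 FPKM, RPL7AP50 at 5891 and 1363 FPKM, and RPL15P3 at 5057 and 1836 FPKM.

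Most strong loci came back in the other library. A locus of the same kind overlapped 164 of the 239 loci of replicate 1 (68.6%) and 164 of the 218 of replicate 2 (75.2%). The share went up with FPKM, at 49.4 and 46.8% for 100 to 200 FPKM, 75 and 85.3% for 200 to 500 FPKM, and 84.2 and 97.2% for 500 FPKM or more. The limit applies in both libraries, so loci near it can drop out of a match by level alone. Any assembled locus of the other library overlapped 209 loci of replicate 1 (87.4%) and 186 of replicate 2 (85.3%), where all short assembled loci outside reference loci gave 68.0 and 54.8%, and the rest gave 62.9 and 48.3%. For 20 of the 209 and 11 of the 186, that locus was neither of the same kind nor of the rest. Such loci had a median of 4.55 and 1.77 FPKM and a median longest transcript of 344.5 and 306 bases. No locus at all lay at that place in the other library for 29 and 32 loci, whose median was 151 and 142 FPKM. Pseudogene sites were 92 of the 164 sites found in both libraries (56.1%) and 50 of the 129 found in 1 library (38.8%).

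Matched loci also had nearly the same borders. Both start and end lay within 5 bases of each other in 135 of the 164 pairs (82.3%), and were identical in 27. The log2 ratio of FPKM + 1, replicate 1 over replicate 2, had a median of 0.02 (quartiles -0.46 and 0.32, SD 0.87, range -3.95 to 3.30), and 106 pairs (64.6%) were within 1.5-fold. Over the 164 pairs, the correlation of log10 FPKM was 0.858 (Pearson) and the rank correlation 0.807, as descriptions of a range that starts at 100 FPKM in both libraries. A pair was said to differ when its bounds, as deposited, did not overlap and its log2 ratio was at least 1 in size. By that rule 15 pairs (9.15%) differed, 8 higher in replicate 1 and 7 higher in replicate 2. The same rule gave 16.5% of all 363 matched short assembled loci (9.92% higher in replicate 1 and 6.61% higher in replicate 2). It gave 18.6% of reference transcripts at 1 FPKM or more in a library, 2.72% of those at 100 FPKM or more in 1 library, and 0.755% of those at 100 FPKM or more in both. The share of the pairs thus lay below that of short loci in general and above that of reference transcripts held to the same limit, as counts with no test.

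**Figure D5:**
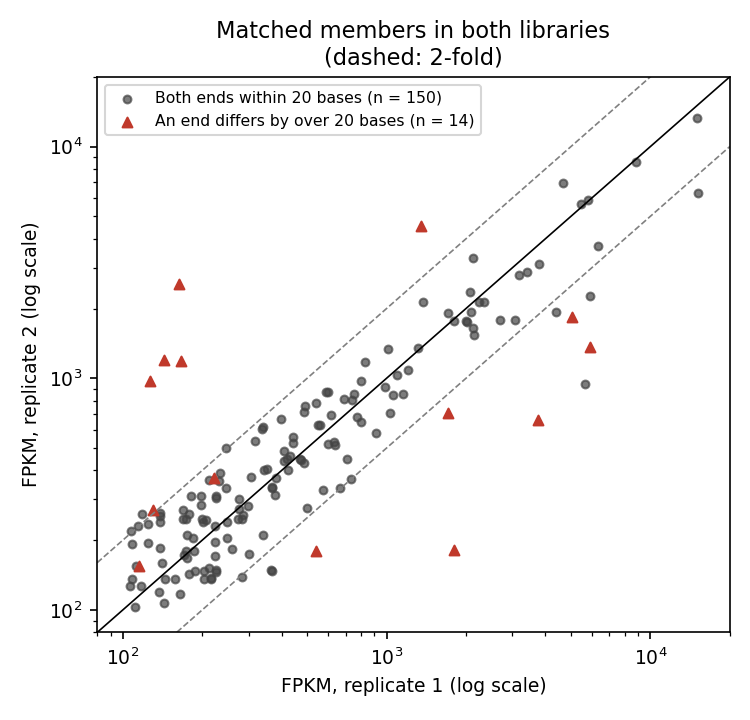
FPKM of the 164 matched loci in replicate 1 (x axis, log scale) and replicate 2 (y axis, log scale), with lines of equal level and of 2-fold difference. Triangles are the 14 pairs with an end that differs by over 20 bases between libraries, and 12 of the 15 pairs said to differ are among them.

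The pairs that differed were mostly those whose assembled length differed. Of the 14 pairs with an end over 20 bases apart, 12 differed in level, against 3 of the other 150 (2.00%). RPS8P1 stood at 1800 FPKM over 93 bases in replicate 1 and 181.7 FPKM over 159 bases in replicate 2 (log2 ratio 3.30). RPL19P13 followed at 5652 and 940.1 FPKM over 47 and 57 bases (2.59), and RPL7P9 at 3752 and 663.2 FPKM over 94 and 149 bases (2.5). RPL19P13 is not among the 14 pairs, as its start and end each differed by under 20 bases. Both its lengths are under 60 bases, where FPKM is on another scale. In each of these 3 copies the shorter assembly had the higher FPKM. The same held the other way round. RPS23P8 stood at 163.1 FPKM over 195 bases in replicate 1 and 2541 FPKM over 88 bases in replicate 2 (log2 ratio -3.95). HMGB1P5 stood at 143.1 and 1204 FPKM over 140 and 81 bases (-3.06), and RPL12P47 at 126.7 and 971.4 FPKM over 168 and 85 bases (-2.93).

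Among loci with no assembled locus at that place in the other library, the highest of replicate 1 were chr18:76759597-76759639 at 4098 FPKM and chr1:115169265-115169314 at 1385 FPKM, of 43 and 50 bases, and the copy AC099789.1 at 1269 FPKM, whose closest coding match was RPS2, a small subunit gene. Among the loci of replicate 2 with no assembled locus there in replicate 1, the highest were HNRNPA1P55 at 398.2 FPKM, METTL15P1 at 262.4 FPKM and SONP1 at 246.0 FPKM, copies of an hnRNP gene, a methyltransferase gene and an RNA splicing gene. The bounds of the first 2 in replicate 1 were wide, at 1627 to 6569 and 549.8 to 2220 FPKM.

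The loci were scattered rather than clustered. The nearest neighbour of the same library lay a median of 4056599 bases away in replicate 1 and 4585380 in replicate 2. Within 10 kb of another locus lay 8 loci in 3 clusters in replicate 1 (3.35%) and 10 loci in 4 clusters in replicate 2 (4.59%). The largest cluster held 4 loci in each library, over 8867 and 8874 bases of chromosome 15 (chr15:25098725-25107591 in replicate 1), all over exons of SNHG14, the long non-coding host transcript of snoRNAs in the imprinted Prader-Willi region. From left to right they stood at 245.8, 212.1, 106.3 and 440.3 FPKM in replicate 1 and 336.7, 151.2, 126.3 and 525.3 FPKM in replicate 2. The rightmost was the highest in both libraries. Starts were 2071, 3059 and 3620 bases apart in replicate 1, and the nearest annotated snoRNA was SNORD116-26, SNORD116-27, SNORD116-28 and SNORD116-30, at 666, 697, 669 and 676 bases. The loci thus lay at nearly the same distance from a SNORD116 copy each time, and 0 of the 293 sites overlapped a RefSeq snoRNA, snRNA or miRNA gene. The second locus of the cluster in replicate 1 is shown as the example of a site that is no copy of a coding message. It had no run of 8 A or T and no match to a coding transcript.
SNHG14 exon, chr15:25100796-25100876, plus strand: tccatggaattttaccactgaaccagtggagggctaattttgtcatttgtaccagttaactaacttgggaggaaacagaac

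The other clusters were pairs. In ASIP on chromosome 20, the gene of agouti signalling protein, loci at 233.1 and 108.0 FPKM in replicate 1 and 389.3 and 135.6 FPKM in replicate 2 had starts 1397 and 1399 bases apart. On chromosome 3, with no annotated gene, 258.5 and 667.5 FPKM in replicate 1 and 184.0 and 335.1 FPKM in replicate 2 had starts 1149 and 1153 bases apart. In EIF4BP7 on chromosome X, a copy of a translation initiation factor gene, replicate 2 had loci at 243.7 and 361.1 FPKM. The second was matched by a locus of replicate 1 at 232.7 FPKM, which had no other such locus within 10 kb.

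Every chromosome held at least 2 sites. The share on X was above its share of pseudogenes and of reference genes, as was that of some other chromosomes, 4 and 6 among them. Chromosome 1 held 26 sites (8.87%), beside 8.78% of RefSeq pseudogenes and 9.12% of the reference gene identifiers of replicate 1. Chromosome X held 24 sites (8.19%), beside 5.48% of RefSeq pseudogenes and 3.49% of reference gene identifiers, and 18 of the 24 were found in both libraries. Chromosomes 4 and 6 held 22 sites each (7.51%), beside 4.93 and 5.64% of RefSeq pseudogenes and 3.56 and 5.05% of the reference gene identifiers of replicate 1. Chromosome 19 held 5 sites (1.71%), beside 3.23% of RefSeq pseudogenes and 5.43% of reference gene identifiers. Of all short assembled loci outside reference loci, 239 of 1150 and 218 of 1244 reached the FPKM limit in replicates 1 and 2. On X, 20 of 54 and 22 of 58 did. The counts were 17 of 50 and 17 of 62 on chromosome 4, and 18 of 63 and 15 of 61 on chromosome 6. They were 20 of 76 and 19 of 94 on chromosome 1, and 5 of 43 and 3 of 35 on chromosome 19. Unplaced or unlocalised scaffolds held 5 sites, 1 of them in both libraries. These shares are descriptions and no test was made.

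The loci lay farther from annotated genes of the files than the rest. The median distance to the nearest reference locus was 26470 bases in replicate 1 and 26479 in replicate 2, against 9505 and 10594 for the rest. Within 1 kb of a reference locus lay 4.60 and 5.05% of the loci, against 20.5 and 15.5% of the rest. At the limit, the lowest loci inside stood at 101.0 and 101.3 FPKM in replicate 1 and 102.3 and 102.4 FPKM in replicate 2, and the highest outside at 99.88 and 99.39 FPKM in replicate 1 and 98.46 and 97.97 FPKM in replicate 2. The locus at 99.39 FPKM, chr15:25091587-25091724, lay on chromosome 15 near the SNHG14 cluster.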

How the data were processed

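Poly(A) RNA of 2 libraries of 1 untreated cell line was measured. The submitters' processing notes list Cufflinks 2.2.1, TopHat2 2.0.13, Bowtie2 2.2.3, Trimmomatic 0.32, FastQC 0.11.2 and build GRCh38. The authors deposited FPKM with confidence bounds per gene and transcript, and coverage and length per transcript, per the file headers. Transcripts were assembled per library, and loci were matched by overlap of 1 base or more. Replicates were numbered in accession order. Locus starts count from 0, and 1 was added: of 13006 named loci, 6234 had the RefSeq start after that step and 118 before it. FPKM was taken from the transcript table. The assembly settings, annotation release and use of strand are not stated in the labels.

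Pseudogenes came from the RefSeq gene table (GRCh38.p14) and GENCODE 29. Parents were read from pseudogene names, and sequences from GENCODE 29 transcripts, compared with blastn 2.17.0. Python 3.11.15, pandas 2.3.3, numpy 2.4.6 and matplotlib 3.10.9 were used. The rule and the matching were tested on simulated data. With 1 group there is no contrast and no p-value. The depth is unknown, and the bounds cover estimation within a library. The loci, lists and annotation classes were chosen with earlier results of these data known. Sites named in the text were the 10 matched of highest mean FPKM, the 3 highest per library without a counterpart, the 3 largest ratios in each direction, 2 on each side of the limit and the clusters; others were chosen as examples after their values were seen.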

Additional observations from a re-analysis of the deposited data

How the results depend on the processing

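Of 55 alternatives over 6 results, 42 stayed within 1.5 times of a count or within the spread between replicates of a share. Some of the 42 could not move. Keeping only loci with status OK, or taking FPKM per gene, gave back the main values, since every locus had that status and a single transcript. The share of 1 library always lies within that spread of the mean of both. The count of 42 is therefore no measure of stability. The 239 and 218 loci averaged 146 at a limit of 200 FPKM. The share matched (mean of both directions 71.9%) was 59.9% at 50 FPKM. The 15 pairs that differed were 7 at 200 FPKM and 3 among pairs with ends within 20 bases, an alternative chosen after seeing the data. Loci in clusters averaged 9 per library, 21.5 at 50 FPKM, 4.5 at 200 FPKM, 5 at 1 kb or more from reference loci, 0 with chains of 1 kb and 19 with chains of 100 kb. The pseudogene share (mean 51.1%), whose alternatives were chosen after seeing the data, was 39.4% at 50 FPKM, 60.5% at 200 FPKM, 47.6% by RefSeq alone and 20.7% by GENCODE alone. With each library on its own, the count of loci was 218 to 239, the share matched 68.6 to 75.2%, loci in clusters 8 to 10, the pseudogene share 49.5 to 52.7% and the share on chromosome X, which held the most loci when both libraries are added, 8.37 to 10.1%. Leaving out a library leaves no ratio between libraries. No paired analysis was possible because there is 1 group and the replicate numbers pair nothing. FPKM 1 or more in both libraries left the 363 matched background loci and their 16.5% as they were. Bounds of loci under 60 bases span about 50% of the value on each side, and small differences were not detectable there.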

Other observations

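Some sites outside pseudogenes fell in the same non-coding gene though over 10 kb apart. FLG-AS1, an antisense transcript on chromosome 1, held 3 sites, at 110.1, 114.8 and 206.3 FPKM in replicate 1, and at 154.5 and 244.6 FPKM for the last 2 of them in replicate 2. LINC02055 on chromosome 8 also held 3 sites, at 173.7 and 117.4 FPKM in replicate 1 and at 179.6, 127.5 and 213.3 FPKM in replicate 2. LINC01173 on chromosome 2 held 2 sites, at 538.1 and 231.5 FPKM in replicate 1, the first of which stood at 180.4 FPKM in replicate 2.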
